A study of Aspergillus aculeatus with 24 samples.

Results

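Among 8615 gene IDs measured by RNA sequencing in Aspergillus aculeatus, 10 had more reads in wheat bran/soy bean medium than in glucose in the strain HUT2365, with at most small medium differences in the strains BCC56535 and BCC199. They were chosen by the deposited values themselves. M is the log2 ratio of the mean in wheat bran/soy bean to the mean in glucose, per strain and day. A member had an M of at least 2 (4-fold) on both days in HUT2365 and an M between -1 and 1 (under 2-fold either way) on both days in BCC56535 and BCC199. It also had a mean of at least 100 normalized reads in at least 1 HUT2365 wheat bran/soy bean group. The study grew mycelium of the 3 strains in glucose or wheat bran/soy bean medium, at 30 °C with aeration, and collected it after 72 h (day 3) and 144 h (day 6). Every combination of strain, medium and day is covered by 2 libraries (replicates A and B, 24 libraries in 12 groups). No genotype, allele or origin is given for a strain beyond its name. The labels call the replicates biological. They do not state separate cultures, and the p-values below measure the variation among libraries, part of which may be technical. The submitters present the strains as unequal in breaking down plant material, with 1 condition chosen to induce cellulases.

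Aspergillus species feed by secreting enzymes that cut plant polymers into small molecules that the hyphae take up. Wheat bran is rich in arabinoxylan, cellulose and starch, and soybean adds protein and pectin. In well studied relatives such as Aspergillus nidulans and Aspergillus niger, glucose lowers transcription of many genes for the use of other carbon sources through the repressor CreA, and activators such as XlnR raise genes for cellulases and xylanases when their inducers are present. The level of each ID is therefore given separately in each medium. The deposited table pairs no ID with a gene name, and none of the 10 members matched the reference table of the Aspac1 assembly (0 of 8615 IDs matched among its 11152 genes). The members are therefore described by ID only, with no function and no sequence. Each of the 10 was the only ID with its number prefix.

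The values are normalized reads as deposited, which include a constant of 1, so that 1 stands for 0 reads. The libraries held between 19248977 and 30003709 reads, recovered from the steps of the values. The lowest count of any member in any library was 7 reads, and counting error is large at that level. Gene lengths are not in the files, so levels are compared between libraries for 1 ID and not between IDs. The tissue was bulk mycelium, in which a change in the make-up of the mycelium and a change in RNA per cell cannot be told apart.

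In HUT2365 the wheat bran/soy bean and glucose libraries did not overlap for any of the 10 IDs, and the means differed by 4.16-fold to 39.3-fold (M 2.06 to 5.30). This contrast chose the members, so the separation and these values are a description. The share of all IDs whose HUT2365 libraries separate by medium was not computed. By limma, a linear model fitted across all IDs with adjusted p under 0.05 as the threshold, all 10 were higher in wheat bran/soy bean on each day, against 25.3% of the 8509 IDs tested on day 3 and 22.0% on day 6, from which nothing is read. The largest ratios on day 3 were those of acu07238_1 (39.3-fold), acu00847_1 (29.9-fold) and acu03494_1 (28.5-fold). On day 6 they were those of acu01106_1 (21-fold), acu00847_1 (20.5-fold) and acu03494_1 (14.2-fold). The smallest were those of acu07988_1 on day 6 (4.16-fold) and acu02967_1 on day 3 (4.2-fold). The ratio was larger on day 3 than on day 6 for 7 of the 10. How many of all IDs had a larger ratio on day 3 was not computed. Of the 64 IDs that missed only 1 condition of the rule, 21 missed the HUT2365 limit on day 6 and 3 that on day 3. In the other strains the M of the 10 members ran from -0.95 to 0.98.

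**Figure D1:**
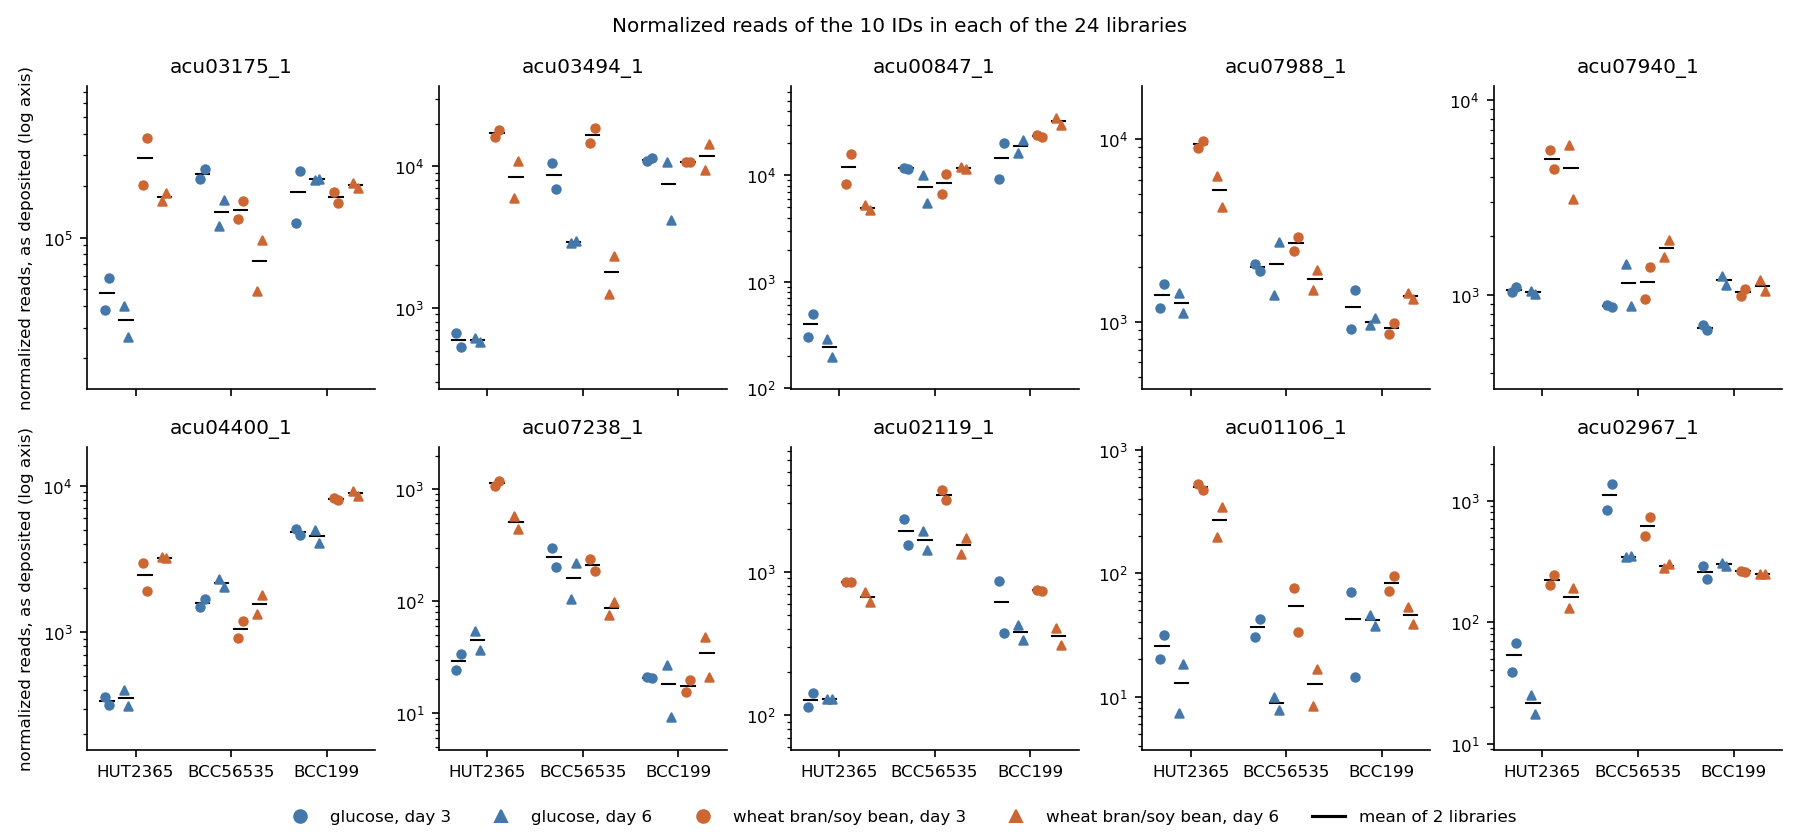
Normalized reads of the 10 IDs (y axis, log scale, as deposited) in the 24 libraries, by strain (x axis), medium (colour) and day (circles for day 3, triangles for day 6), with black lines at the mean of the 2 libraries of a group. The orange HUT2365 points lie above the blue HUT2365 points in all 10 panels. In 5 panels the blue HUT2365 points lie below every point of the other strains, and in 4 the orange HUT2365 points lie above every point of the other strains.

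The 2 libraries of a group leave the ratios with a wide margin. When M was taken from each of the 4 pairs of single libraries per day, it reached 2 in every HUT2365 pair for 6 of the 10 IDs. For acu07940_1, acu07988_1 and acu02967_1 the lowest pair gave 1.55, 1.58 and 1.58, and for acu03175_1 1.80. In the other strains, 9 of the 10 IDs had at least 1 pair at or past -1 or 1. The highest was a pair of acu01106_1 in BCC199 on day 3, where the 4 pairs ran from 0.02 to 2.73: the glucose libraries had 70.2 and 14.4 and the wheat bran/soy bean libraries 71.2 and 95.4. From the group means, the acu01106_1 ratio of 0.98 there lay nearest to a limit of the rule, followed by acu04400_1 (0.98 in BCC199 on day 6) and acu03175_1 (-0.95 in BCC56535 on day 6). Just outside lay acu02846_1 (1.01 in BCC56535 on day 3), acu05294_1 (1.04 in BCC56535 on day 6) and acu05207_1 (-1.04 in BCC56535 on day 3). Of the 457 IDs with an M of at least 2 on both days in HUT2365, 402 had the required level. Of these, 53 were within the limits in BCC56535, 57 in BCC199 and 10 in both.

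**Figure D2:**
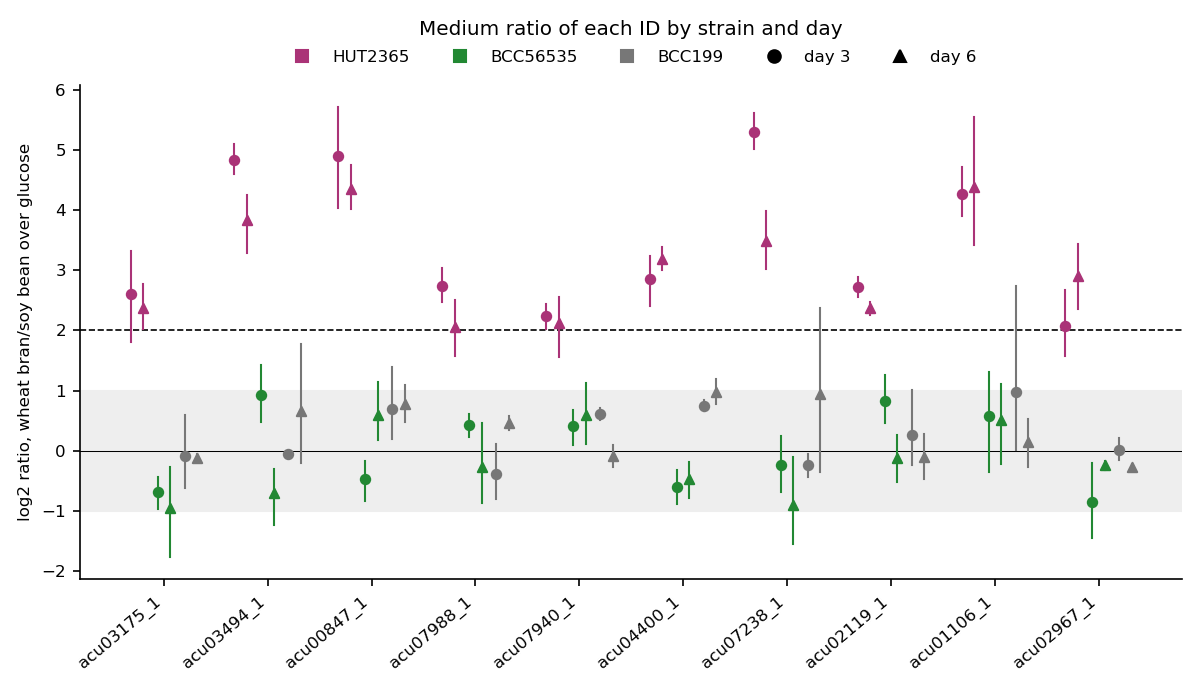
The log2 ratio M of wheat bran/soy bean over glucose (y axis) for each ID (x axis), strain (colour) and day (circles for day 3, triangles for day 6), computed from group means. Vertical lines span the 4 pairs of single libraries, the grey band marks -1 to 1 and the dashed line marks 2. HUT2365 lies between 2.06 and 5.30, and the other strains between -0.95 and 0.98.

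The rule fixes how far the medium ratio of HUT2365 departs from that of the other strains, but not in which medium the levels part, and the 10 IDs fell into separate patterns. In 4 of them, acu07988_1, acu07940_1, acu07238_1 and acu01106_1, every HUT2365 wheat bran/soy bean library lay above all 16 libraries of BCC56535 and BCC199. This held for 6.82% of all IDs. In 5 others, acu03494_1, acu00847_1, acu04400_1, acu02119_1 and acu02967_1, every HUT2365 glucose library lay below all 16 libraries of the other strains, against 7.50% of all IDs. acu03175_1 was low in HUT2365 glucose as well, below each of the 8 glucose libraries of the other strains, but it overlapped with 1 BCC56535 wheat bran/soy bean library (day 6 replicate A). Without that library, or without the HUT2365 glucose day 3 replicate B, it joins the 5. No ID was in both patterns. The values entered the rule, so both counts are descriptions with no test.

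**Figure D3:**
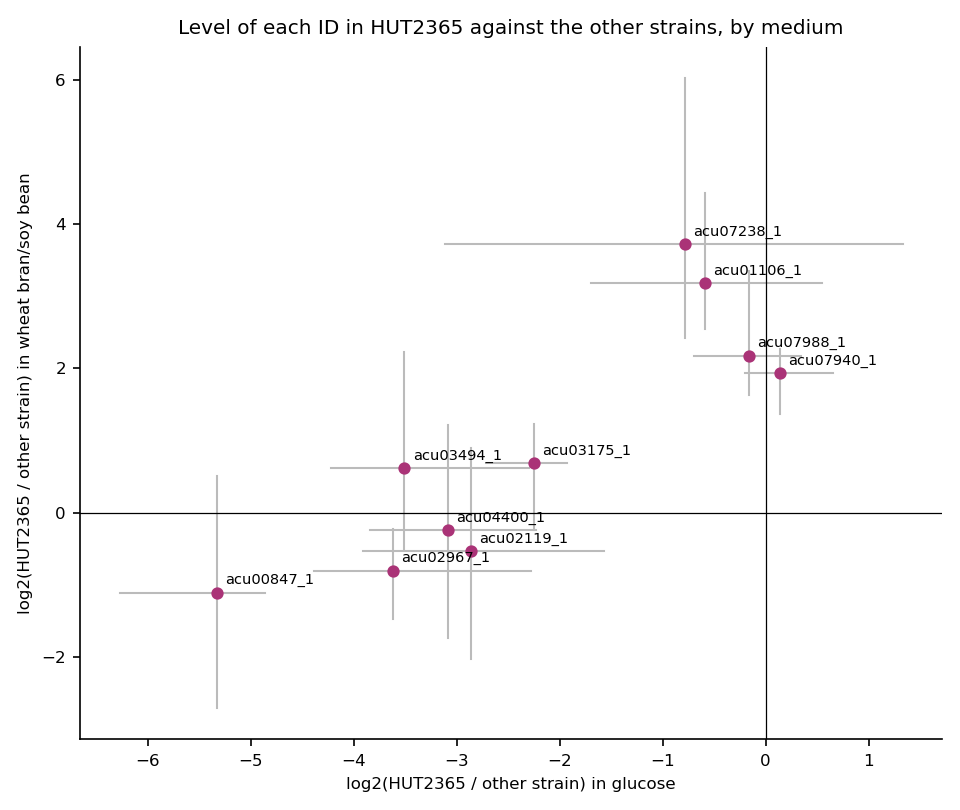
Log2 ratio of the HUT2365 mean to the mean of another strain in glucose (x axis) and in wheat bran/soy bean (y axis) for the 10 IDs. Points are the mean over 2 strains and 2 days, and grey lines span the lowest and highest of these 4 ratios. The top holds the 4 IDs whose HUT2365 wheat bran/soy bean libraries all lay above every library of the other strains. Their mean log2 ratios were 1.94 to 3.72 in wheat bran/soy bean and -0.78 to 0.14 in glucose. The single glucose ratios spread wider, from -3.11 to 1.33 for acu07238_1 and from -1.70 to 0.55 for acu01106_1. The left side holds the 6 whose HUT2365 glucose libraries all lay below every glucose library of the other strains. Their mean log2 ratios were -5.33 to -2.25 in glucose and -1.10 to 0.69 in wheat bran/soy bean. How many of all IDs separate in this way among the glucose libraries was not computed.

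Of the 4 IDs that stood highest in HUT2365 on wheat bran/soy bean, acu07238_1 had the widest range. Its HUT2365 wheat bran/soy bean libraries had 1079.7 and 1194 normalized reads on day 3 and 580.3 and 438 on day 6. In HUT2365 glucose it had 24.4 and 33.5 on day 3 and 54.2 and 36.6 on day 6. The 8 BCC56535 libraries had a lowest, median and highest value of 75.2, 193 and 298, and the 8 BCC199 libraries of 9.27, 20.7 and 48.1. In glucose the HUT2365 mean was below that of BCC56535, by 8.63-fold on day 3 and 3.56-fold on day 6, and above that of BCC199, at 1.4 and 2.52 times its level. In wheat bran/soy bean the HUT2365 mean exceeded that of BCC56535 by 5.35-fold and 5.88-fold, and that of BCC199 by 64.7-fold and 14.7-fold.

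acu01106_1 was low everywhere but in HUT2365 on wheat bran/soy bean. There it had 528 and 469.9 normalized reads on day 3 and 196 and 343 on day 6. In HUT2365 glucose it had 20.2 and 31.6 on day 3 and 7.31 and 18.4 on day 6, which overlapped with the other strains. Those ran over 7.72, 23.6 and 75.8 in BCC56535 and 14.4, 49.9 and 95.4 in BCC199 (lowest, median and highest of 8). It was the 1 member with a mean under 100 over the 16 libraries of the other strains, at 40.7.

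acu07988_1 and acu07940_1 had glucose means in HUT2365 within 1.62-fold of those in either other strain. acu07988_1 had 1192 and 1604 normalized reads in HUT2365 glucose on day 3 and 1429.6 and 1113 on day 6, against 8923 and 9783 and then 6304 and 4262 in wheat bran/soy bean. Over the 8 libraries of each other strain the lowest, median and highest were 1399, 1999 and 2917 in BCC56535 and 853, 1017 and 1494 in BCC199. The HUT2365 wheat bran/soy bean mean was 3.49-fold that of BCC56535 and 10.2-fold that of BCC199 on day 3, and 3.09-fold and 3.82-fold on day 6. acu07940_1 had 1029.7 and 1094 in HUT2365 glucose on day 3 and 1053 and 1005 on day 6, the closest set of values of the 10 IDs. In wheat bran/soy bean it had 5557 and 4428, then 5896 and 3088. Its other libraries ran over 864, 1169 and 1912 in BCC56535 and 657, 1055 and 1250.4 in BCC199. On day 6 its HUT2365 replicates differed most, and replicate B still lay above every library of the other strains.

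The largest gap in glucose was that of acu00847_1. HUT2365 had 302 and 502 normalized reads on day 3 and 291 and 196 on day 6 in glucose, and 8225 and 15799, then 5244 and 4710.5, in wheat bran/soy bean. The other strains had 5452, 10871 and 12060.1 in BCC56535 and 9197, 22207 and 34671 in BCC199 (lowest, median and highest of 8, both media). In glucose the HUT2365 mean was lower than that of BCC56535 by 29-fold on day 3 and 32-fold on day 6, and than that of BCC199 by 36.4-fold and 77.4-fold. In wheat bran/soy bean on day 3 HUT2365 was 1.42-fold the BCC56535 mean, with overlapping libraries, and below the BCC199 mean by 1.97-fold. On day 6 it was below BCC56535 by 2.37-fold and below BCC199 by 6.48-fold. The ID was high in both media in BCC56535 and BCC199, and low in the HUT2365 glucose libraries alone.

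acu03494_1 had 664 and 534 normalized reads in HUT2365 glucose on day 3 and 612 and 579 on day 6. Its wheat bran/soy bean libraries had 15996 and 18188 on day 3 and 5933 and 10951 on day 6. BCC199 ran over 4173, 10755 and 14325 and BCC56535 over 1264, 4927 and 18519. In wheat bran/soy bean on day 3 the HUT2365 mean was 1.03-fold the BCC56535 mean and 1.6-fold the BCC199 mean. On day 6 it was 4.7-fold the BCC56535 mean and 0.711-fold the BCC199 mean. The BCC56535 values were far from even over time: the day 3 means were 8687 ± 2568 (SD, n = 2) in glucose and 16539 ± 2801 in wheat bran/soy bean, and the day 6 means 2932 ± 72.2 and 1796 ± 752.

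For acu04400_1 the strains stood in the same order on both days in glucose. HUT2365 had 360.3 and 316 on day 3 and 399 and 311 on day 6, BCC56535 1486 and 1686, then 2295 and 2022, and BCC199 5082 and 4589, then 4980.3 and 4027. No libraries of different strains overlapped there. In wheat bran/soy bean HUT2365 had 2960.0 and 1912, then 3257 and 3184, between BCC56535 (909.8 and 1189, then 1333 and 1780.4) and BCC199 (8246 and 8001, then 9181 and 8553). BCC199 itself had 1.68-fold more in wheat bran/soy bean on day 3 and 1.97-fold more on day 6, just under the limit of the rule.

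In wheat bran/soy bean, acu02119_1 and acu02967_1 had HUT2365 means below those of BCC56535 on both days. Likewise, acu00847_1 and acu04400_1 had HUT2365 means below those of BCC199 on both days, and acu03494_1 on day 6. acu02119_1 had 114 and 143 on day 3 and 129 and 129 on day 6 in HUT2365 glucose, and 844 and 845, then 718 and 616, in wheat bran/soy bean. BCC56535 ran over 1340.4, 1811 and 3706 and BCC199 over 309, 418 and 864, so every HUT2365 library lay below every BCC56535 library. acu02967_1 had 38.6 and 67.8 in HUT2365 glucose on day 3 and 25.4 and 17.6 on day 6, and 203 and 244, then 130.0 and 191, in wheat bran/soy bean. BCC199 ran over 225, 261 and 309, and BCC56535 ran over 281, 429 and 1382. In glucose the acu02967_1 mean of HUT2365 was below that of BCC56535 by 20.9-fold on day 3 and 16.1-fold on day 6, and in wheat bran/soy bean it remained below, by 2.77-fold and 1.82-fold. For all 5 IDs low in HUT2365 glucose, reads of HUT2365 were assigned in wheat bran/soy bean at 130.0 normalized reads or more per library. The rule required a mean of at least 100 in at least 1 of those groups, so this is a description. Whether the reads of an ID are counted alike in the 3 strains was not tested.

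acu03175_1 took more reads than any other ID in each of the 4 HUT2365 wheat bran/soy bean libraries, 0.67% to 1.32% of all normalized reads, not corrected for length. It also ranked first in 3 of 4 and 2 of 4 BCC199 libraries in glucose and wheat bran/soy bean, and in 2 of 4 BCC56535 glucose libraries. In HUT2365 wheat bran/soy bean it had 202515 and 379509 normalized reads on day 3 and 162172 and 180156 on day 6. In HUT2365 glucose it had 37881 and 58171 on day 3 and 39845 and 26407 on day 6, 0.12% to 0.26% of the reads. BCC56535 ran over 48884, 144866 and 249035 and BCC199 over 120843, 200868 and 244431. In glucose the HUT2365 mean was below BCC56535 by 4.86-fold on day 3 and 4.25-fold on day 6, and below BCC199 by 3.8-fold and 6.56-fold. In BCC56535 the ID went the other way, with means in wheat bran/soy bean at 0.62 and 0.517 times those in glucose. Over the 24 libraries, the IDs outside the 10 whose log2 values followed it most closely were acu04516_1 (Pearson's r = 0.94), acu03174_1 (0.90) and acu08135_1 (0.89). These libraries share strains, media and days, so the correlations are a description. acu04516_1 had an M of 1.47 and 1.01 in HUT2365 on the 2 days, acu03174_1 1.90 and 1.51, and acu08135_1 2.02 and 0.81, so each missed the rule in HUT2365.

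The rule treated BCC56535 and BCC199 alike and fixed no direction between them, so their levels were tested, as the mean over both media on each day. On day 3, 4 of the 10 IDs were higher in BCC56535 and 2 lower (32.8% and 30.9% of all IDs, limma). On day 6, 3 were higher and 5 lower (32.7% and 32.7%). The members' share of calls on day 3, 6 of 10, is near that of all IDs. The median log2 difference of the 10 was 0.19 on day 3 and -0.44 on day 6, against 0.03 and 0.00 over all IDs.

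The largest difference was that of acu07238_1, whose 8 BCC56535 libraries all lay above the 8 of BCC199. On day 3 its log2 difference was 3.51 (SE 0.34, adjusted p = 1.46e-07, limma) and on day 6 2.29 (adjusted p = 1.69e-05). acu02119_1 was higher in BCC56535 in every library too, with a log2 difference of 1.97 on day 3 (adjusted p = 8.21e-07) and a 4.29-fold difference on day 6 (adjusted p = 3.59e-07). The reverse held for acu04400_1, with every BCC56535 library below every BCC199 library (log2 difference -2.29, SE 0.15, adjusted p = 1.62e-09 on day 3, and -1.79 on day 6 with adjusted p = 2.48e-08). The share of all IDs whose libraries separate in this way between these strains was not computed. acu07988_1 was higher in BCC56535 on both days (log2 difference 1.16, adjusted p = 0.000117, and 0.63, adjusted p = 0.0127). The day 6 call is lost without the BCC56535 replicate B in glucose (adjusted p = 0.0851) or in wheat bran/soy bean (0.053). acu00847_1 was lower in BCC56535 on both days (-0.87, adjusted p = 0.0101, and -1.39, adjusted p = 0.000268). Its day 3 call is lost without the BCC56535 wheat bran/soy bean replicate A (adjusted p = 0.0504) or the BCC199 glucose replicate B (0.0674).

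The remaining calls held on 1 day. acu02967_1 was higher in BCC56535 on day 3 (log2 difference 1.65, adjusted p = 7.16e-06, limma) and had a log2 difference of 0.22 on day 6 (adjusted p = 0.408). acu03175_1, acu03494_1 and acu01106_1 were lower in BCC56535 on day 6, with log2 differences of -1.10, -1.98 and -1.99 (adjusted p = 0.00368, 7.36e-06 and 0.000744), and did not pass on day 3. acu07940_1 passed on neither day (log2 difference 0.27 and 0.28).

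**Figure D4:**
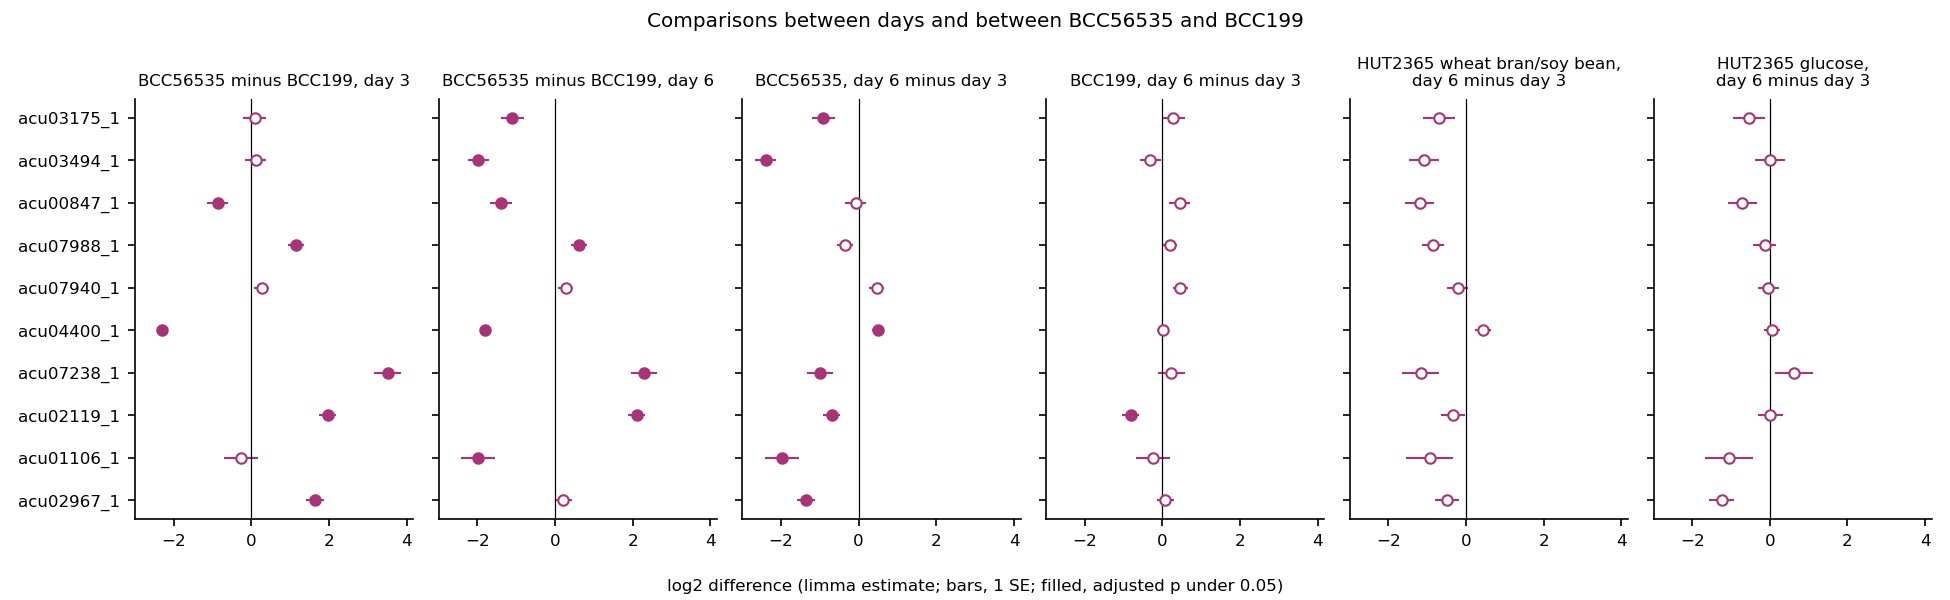
Log2 differences (x axis) of the 10 IDs (y axis) between BCC56535 and BCC199 on each day, and between day 6 and day 3 in each strain, estimated by limma with bars of 1 SE. Filled points passed an adjusted p under 0.05. The day 3 strain difference passed for 6 IDs and that of day 6 for 8, the change between days for 7 in BCC56535 and 1 in BCC199, and for 0 in HUT2365 in either medium.

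Change from day 3 to day 6 was tested next, since the rule treats the days alike. In BCC56535, as the mean over both media, 6 of the 10 IDs fell and 1 rose, against 19.3% and 16.8% of all IDs (limma). The median log2 change was -0.80, against -0.02 over all IDs. acu03494_1 fell most, by 2.40 on the log2 scale (SE 0.27, adjusted p = 6.94e-06), followed by acu01106_1 (log2 change -1.97, adjusted p = 0.00221) and acu02967_1 (-1.35, adjusted p = 0.00021). These 3 passed without any 1 of the 8 libraries. acu07238_1 (-0.99, adjusted p = 0.0309), acu03175_1 (-0.91, 0.024) and acu02119_1 (-0.69, 0.0221) also fell, and acu04400_1 rose (0.51, 0.0151). Each of these 4 calls rested on single libraries. For acu03175_1 it was lost without the day 3 replicate B in glucose (adjusted p = 0.0597) or wheat bran/soy bean (0.08), or the day 6 replicate A in either (0.0841 and 0.123). acu04400_1 lost it without glucose day 6 replicate A (0.0502), wheat bran/soy bean day 3 replicate A (0.0681) or day 6 replicate B (0.0728). acu07238_1 lost it without replicate A of any of the 4 groups (0.092 to 0.141). acu02119_1 lost it without the day 3 replicate A in glucose (0.0945) or wheat bran/soy bean (0.0677), the glucose day 6 replicate B (0.0733) or the wheat bran/soy bean day 6 replicate A (0.0818). Without glucose day 6 replicate A, wheat bran/soy bean day 3 replicate A or wheat bran/soy bean day 6 replicate A, 4 of the 10 passed. With only the BCC56535 libraries in the fit, 4 passed as well. Quantile normalization left 5, without acu03175_1 (log2 change -0.54, adjusted p = 0.0693) and acu07238_1 (-0.84, adjusted p = 0.0504).

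In BCC199, 1 of the 10 fell and 0 rose between the days (3.30% and 4.31% of all IDs, limma). At an unadjusted p under 0.05 there were 2 members, against 1731 of the 8509 IDs tested. With voom weights 1 member was called, against 572 of the 8509. The median log2 change of the 10 was 0.13, against -0.01 over all IDs. The 1 that fell was acu02119_1 (log2 difference -0.82, SE 0.22, adjusted p = 0.0296). In glucose it had 864 and 373 on day 3 and 429 and 337 on day 6, and in wheat bran/soy bean 752 and 731, then 407 and 309. The glucose libraries of the days overlapped. The call was lost without glucose day 3 replicate A (adjusted p = 0.107), glucose day 6 replicate B (0.125), wheat bran/soy bean day 3 replicate A (0.0976) or B (0.0834), or wheat bran/soy bean day 6 replicate B (0.128). With only the BCC199 libraries in the fit it was lost as well (adjusted p = 0.115), and acu07940_1 was called in its place (log2 change 0.46 and adjusted p = 0.178 in the fit of all libraries). acu03494_1, which fell in BCC56535, had a log2 change of -0.31 in BCC199 (adjusted p = 0.597).

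The change from day 3 to day 6 was also compared between BCC56535 and BCC199 directly. It was lower in BCC56535 for 2 of the 10 IDs and higher for 0 (11.6% and 9.60% of all IDs, limma). At an unadjusted p under 0.05 there were 6 members, against 2929 of the 8509 IDs tested. With voom weights 3 members were called, against 1539 of the 8509. The 2 called by limma were acu03494_1 and acu02967_1, both of which fell in BCC56535. Of the other 8 the nearest to the threshold were acu03175_1 (log2 difference -1.19, adjusted p = 0.0512) and acu01106_1 (-1.72, adjusted p = 0.056). Without the BCC56535 day 6 replicate B in glucose 5 of the 10 passed, and without that in wheat bran/soy bean 4. Adding 10 in place of 1 before the logarithm gave 4.

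In HUT2365 none of the 10 passed between the days. In wheat bran/soy bean, 0 rose and 0 fell by limma (4.07% and 4.70% of all IDs). At an unadjusted p under 0.05 there were 4 members, against 2027 of the 8509 IDs tested. The median log2 change of the 10 was -0.77, against -0.01 over all IDs, and 9 of the 10 had an estimate below 0. The share of all IDs with an estimate below 0 was not computed. The means of acu00847_1 were 12012 ± 5356 (SD, n = 2) on day 3 and 4977 ± 377 on day 6 (log2 change -1.20, adjusted p = 0.0627). Those of acu07238_1 were 1137 ± 80.9 and 509 ± 101 (log2 change -1.17, adjusted p = 0.147), and those of acu07988_1 were 9353 ± 608 and 5283 ± 1444 (log2 change -0.85, adjusted p = 0.0795). With voom weights on the recovered reads, acu00847_1 and acu07238_1 passed as lower on day 6 (adjusted p = 0.0477 and 0.00843). Over all IDs, 776 of the 8509 passed with these weights. Without the day 3 replicate A, acu00847_1 passed as the only 1 of the 10. acu04400_1 was the 1 ID with an estimate above 0 (0.44, adjusted p = 0.222). In glucose 0 rose and 0 fell (0% and 0.0353% of all IDs). At an unadjusted p under 0.05 there was 1 member, against 94 of the 8509 IDs. With voom weights 0 members were called, against 2 of the 8509. The member at an unadjusted p under 0.05 was acu02967_1, with means of 53.2 ± 20.7 on day 3 and 21.5 ± 5.49 on day 6 (log2 change -1.24, adjusted p = 0.988). It was named after its value was seen.

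The day 3 wheat bran/soy bean group of HUT2365 had the widest spread between replicates of the 12 groups, with an SD of 0.87 for the log2 ratio of replicate B to A over all tested IDs. Its replicate B was also the shallowest library. Of the 10 IDs, 7 had a higher value in replicate B, against 50.5% of all IDs. Over the 12 groups this count ran from 1 (HUT2365 glucose day 6) to 9 (BCC56535 wheat bran/soy bean day 6). Between the HUT2365 wheat bran/soy bean day 3 replicates, acu00847_1 (log2 ratio 0.94) and acu03175_1 (0.91) differed most. There acu02119_1 was almost equal, with 844 and 845. After quantile normalization 4 of the 10 were higher in replicate B. Without replicate B the rule kept 9 of the 10 IDs and lost acu02967_1, and without replicate A it kept all 10.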

How the data were processed

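RNA from mycelium was sequenced in 24 libraries. The deposited values are a normalized signal per gene ID, made by the authors. HISAT2 2.1.0, Picard and StringTie are named per the submitters' processing notes, while the sources used here do not give their roles, the genome build, the counting or the normalization. In each library the value minus 1 was a whole multiple of 1 step for 100% of values (within 0.02 of a step), and the recovered reads served for depth and for an alternative fit with voom weights.

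log2(value + 1) was fitted with limma 3.58.1 in R 4.3.3, with 12 group means and no covariate. IDs that reached 10 in 2 or more libraries were kept (8509 of 8615, with all 10 members among them, and 106 left out). Adjusted p-values are Benjamini-Hochberg over the 8509 IDs, with a threshold of 0.05, and fold changes of low IDs are understated by the added 1. Simulated data with known changes were used to test the fit. Alternatives changed the added constant (0.5 or 10), the filter, the scaling (a trimmed mean of log ratios, or quantiles), the libraries fitted, the weights and the limits of the rule, or left out 1 library at a time. The members and comparisons were chosen with earlier results of these data known. All 10 members are named, with the 3 IDs nearest outside the limits and the 3 most like the member with the most reads. The comparison of day changes between BCC56535 and BCC199 was added after values were seen.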

Additional observations from a re-analysis of the deposited data

Results flagged for a closer look

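For 2 of the 10 IDs the change from day 3 to day 6, as the mean over both media, differed between BCC56535 and BCC199 by limma's test of that difference, against 11.6% of all IDs lower and 9.60% higher, so that the share of members called is near that of all IDs. For acu03494_1 the log2 change in BCC56535 minus that in BCC199 was -2.09 (adjusted p = 0.00126, limma), and it ran from -2.43 to -1.75 when 1 of the 16 libraries was left out at a time (adjusted p at most 0.00464). For acu02967_1 the difference was -1.43 (adjusted p = 0.00425, limma), with a range of -1.61 to -1.25 (adjusted p at most 0.0136).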

How the results depend on the processing

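The 10 IDs depend on where the limits lie. The rule found 20 IDs with an M of at least 1.5 in HUT2365, 4 with at least 3, and 1 when the other strains had to stay between -0.5 and 0.5. It found 16 from replicate A alone (6 of the 10 among them) and 5 from replicate B alone (1 of the 10), and 7 to 13 when 1 library was left out at a time. Trimmed-mean rescaling gave 8 IDs, all among the 10, and quantile normalization 9, with 7 of the 10. The patterns by strain held 4 and 5 IDs under both scalings.

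In the limma fits, 2 members changed between days in HUT2365 wheat bran/soy bean with voom weights in place of 0, and 0 to 1 when 1 library was left out. In BCC56535, 4 passed with only its own libraries in the fit in place of 7, and 4 to 8 when 1 library was left out. In BCC199 it was 0 to 1 in place of 1, and with only its own libraries the 1 called was acu07940_1 in place of acu02119_1. The members higher in replicate B in HUT2365 wheat bran/soy bean on day 3 went from 7 to 4 with quantile normalization. The causes were not tested.

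The groups share replicate letters. With a replicate block, 6 and 8 members passed between BCC56535 and BCC199 on day 3 and day 6, 7 between days in BCC56535, 1 in BCC199 and 0 in HUT2365 in either medium, the counts without the block, and 3 in place of 2 for the difference in day change. The A minus B differences of 2 groups correlated at -0.48 to 0.23 (median 0.01, 66 pairs of groups), so the letters were not treated as pairs. For HUT2365 glucose, where day 3 and day 6 gave -0.48, exchanging the letters of day 6 called 0 members, an alternative chosen after seeing the data.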
